A study of Rattus norvegicus with 19 samples.

Results

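The transcripts described here were at least 5-fold higher in mast cells sorted from the hypothalamus of newborn rats at postnatal day 2 (PN2) than in mast cells from any other tissue of that age. A transcript was a member when it reached 10 CPM (counts per 1000000 counts of the library) in both hypothalamus libraries of PN2, and when their mean was at least 5 times the highest of the group means of bone marrow, skin and hippocampus at PN2. Of 29107 transcripts in the deposited table, 7483 met the first condition and 66 met both. The levels at PN2 thus chose the members and are given below as a description, without a test.

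All animals were wild type (WT) rats, perfused with PBS before dissection, and mast cells were sorted as live CD45-high, CD11b-negative, FcεRI-positive cells. Each library holds cells pooled from 6 animals, so differences between animals cannot be seen. There were 4 libraries of bone marrow, 5 of skin, 4 of hippocampus and 2 of hypothalamus at PN2, and 3 of hippocampus and 1 of hypothalamus at PN7. The 4 libraries of PN7 took no part in choosing the members.

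Mast cells arise from blood-forming precursors, settle in tissues and release histamine, proteases and cytokines when their IgE receptor FcεRI is engaged. In the brain they lie mostly along blood vessels and in the meninges. The hypothalamus, a neuroendocrine region, borders on the median eminence and on the pituitary stalk. A sort of rare cells from such tissue can also take up other cells or free RNA, which defining markers would show.

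The rows carry Ensembl transcript identifiers without gene names. Of the identifiers, 0 could be matched to the gene table used here, which lists 47357 rat genes of a later assembly. The 16 marker lists, with 197 genes of mast cells, neurons, glia, pituitary, blood and vessel cells, could therefore not be read. Neither the purity of the sorts nor the role of any member was checked, and members are described by their identifiers and values. Other cells in the sorted fraction were not tested as a source of the members. In bulk RNA, fewer cells of a type and less RNA per cell cannot be told apart.

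The hypothalamus libraries of PN2 stood apart in depth, and that of PN7 lay slightly below the lowest of the other libraries. The 2 libraries of PN2 held 5495252 and 5607810 estimated counts and that of PN7 9792422, against 10329777 to 26394623 in the other 16. Replicate 2 of hypothalamus PN2 had a count for 13403 transcripts, fewer than replicate 1 (16231), the PN7 library (17078) and the other libraries (16581 to 19292). At this depth, 10 CPM stand for about 55 counts, and a count of 0 in the PN7 hypothalamus library allows up to 0.306 CPM (3 counts).

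The 66 members ranged from a mean of 12.8 to 117700 CPM in hypothalamus at PN2, with a median of 66.3 CPM. Bone marrow had a median of 1.72 CPM over the members, skin one of 2.55 CPM and hippocampus of PN2 one of 5.52 CPM. The fold over the highest other group had a lowest value of 5.16 and a median of 10.5, and was at least 10 for 34 members, at least 20 for 10 and at least 50 for 5. Hippocampus was the highest of the other groups for 30 members, skin for 19 and bone marrow for 17. In 57 members both hypothalamus libraries lay above all 13 other libraries of PN2, and in 9 they overlapped with them. Over all transcripts tested 2.89% had both above, a share from which nothing is read, since the rule used these values.

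"Restricted" describes few of these transcripts. Only 7 of the 66 stayed below 1 CPM in the means of all 3 other tissues at PN2, while 41 had their highest other mean between 1 and 10 CPM, 13 between 10 and 100 CPM and 5 above it. No count was found in any bone marrow library for 1 member and in any skin library for 4, and each had some estimated count in hippocampus at PN2. For ENSRNOT00000079795.1, chosen after its values were seen, that was 0.158 counts summed over the 4 libraries, so no fold is given for it. It held 26.6 and 23.5 CPM in hypothalamus at PN2 and less than 1 estimated count in the hypothalamus library of PN7. In hippocampus PN7 replicate 3 it held 7.56 CPM, and replicates 1 and 2 held at most 0.00281 CPM. Its counts were whole numbers in only 6 of 19 libraries, each at or near 0 counts. Its reads were thus shared with other transcripts and its level is uncertain. The set is better called enriched in hypothalamus than restricted to it.

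**Figure D1:**
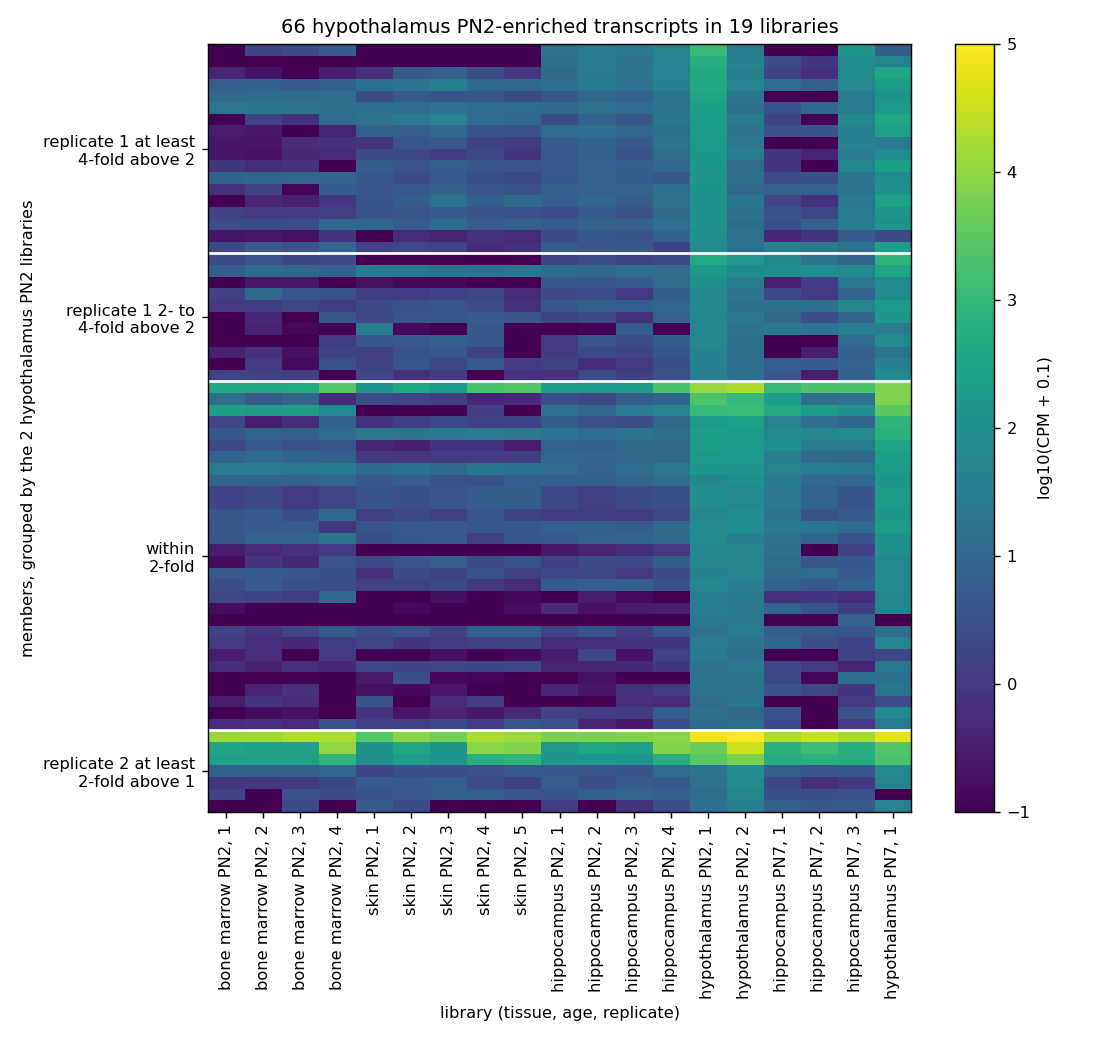
Level of the 66 members (rows) in 19 libraries (columns), as log10(CPM + 0.1) on the colour scale. Rows are grouped by the ratio of the 2 hypothalamus libraries of PN2. In the top 18 rows, hippocampus PN7 replicate 3 is brighter than replicates 1 and 2 in all but 1 row. The 4 members above 100 CPM in every group are bright in all 19 columns.

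The 2 members nearest above the fold limit, at 5.16 and 5.18, averaged 53.8 and 34.3 CPM in hypothalamus at PN2. The nearest transcripts below it, at 4.87 and 4.73, averaged 57.1 and 137 CPM. Of the 66 members, 2 had identical values in all libraries and count as 1 item, which leaves 65. Estimated counts were whole numbers in all 19 libraries for 38 members (57.6%, within a tolerance of 1e-06), against 48.9% of all transcripts with any count. For the other 28, reads were divided with further transcripts in at least 1 library.

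Among the members, 4 were abundant in every sorted population, with at least 100 CPM in all 6 group means. They made up 88.7% and 97.8% of the members' reads in the hypothalamus libraries of PN2 and 78.3% in that of PN7. Without names, their function is not known here.

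ENSRNOT00000011342.5, the member with the highest level, held 68959 and 166441 CPM in hypothalamus at PN2. In the order of replicates, the other tissues of PN2 held 12356, 12880, 19526 and 18376 CPM (bone marrow), 2643, 8981, 5720, 18280 and 13569 CPM (skin) and 6787, 6492, 7563 and 8871 CPM (hippocampus). At PN7 it held 19039, 29216 and 15462 CPM in hippocampus and 57457 CPM in hypothalamus. It ranked first among all transcripts in each of the 3 hypothalamus libraries, with 6.90%, 16.6% and 5.75% of their counts. In the other 16 libraries its rank ran from 2 to 19, so it was a major transcript everywhere and the groups differed in its degree.

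ENSRNOT00000066542.4 followed, with 4565 and 34528 CPM in hypothalamus at PN2. In the other groups of PN2 its level split by replicate number. It held 336, 294 and 279 CPM in bone marrow replicates 1 to 3 and 10143 CPM in replicate 4. It held 117, 390 and 152 CPM in skin replicates 1 to 3, and 8811 and 7154 CPM in replicates 4 and 5. Hippocampus replicates 1 to 3 held 188, 369 and 271 CPM, and replicate 4 held 7105 CPM. Hypothalamus replicate 1 thus lay below 4 libraries of other tissues, and this transcript met the rule through replicate 2. Whether the libraries numbered 4 and 5 share a preparation is not given in the sources used here.

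ENSRNOT00000086492.1 and ENSRNOT00000088161.1 shared this split on a smaller scale. ENSRNOT00000086492.1, chosen after its values were seen, held 11631 and 18636 CPM in hypothalamus at PN2 and 6754 CPM at PN7. It held 2554 CPM in bone marrow replicate 4 against 385 to 453 CPM in the others, and 1892 CPM in hippocampus replicate 4 against 176 to 213 CPM. Its counts were whole numbers in only 3 of 19 libraries, so its reads were shared with other transcripts. ENSRNOT00000088161.1 held 2962 and 6094 CPM in hypothalamus at PN2 and 1989 CPM at PN7, against 93.9 to 897 CPM in the other libraries. Over the 19 libraries it was the member whose log2(CPM + 1) followed ENSRNOT00000011342.5 most closely (Pearson r = 0.93), before ENSRNOT00000004359.2 (r = 0.91). These correlations describe libraries that share tissue and depth, and all pairs of members had a median r of 0.71.

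The other 62 members were also summed, though a gap between the tissues at PN2 follows from the rule itself. Their sum was 11188 and 5166 CPM in hypothalamus at PN2 and 18989 CPM in the hypothalamus library of PN7. Bone marrow reached 384 ± 39.3 CPM (SD, n = 4) and skin 254 ± 42.4 CPM (SD, n = 5). The hippocampus libraries of PN2 reached 430 ± 169 CPM (SD, n = 4). In hippocampus at PN7 it was 1219 ± 450 CPM (SD, n = 3). The lowest hypothalamus library lay above the highest other library, hippocampus PN7 replicate 1 with 1527 CPM. The highest of the 62 members held 2019 and 1215 CPM in hypothalamus at PN2 and 7029 CPM at PN7, so single members weighed heavily in these sums. The sum of the 4 abundant members was 88117 and 225698 CPM in the hypothalamus libraries of PN2 and 68623 CPM in that of PN7, against 2987 to 33330 CPM elsewhere.

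**Figure D2:**
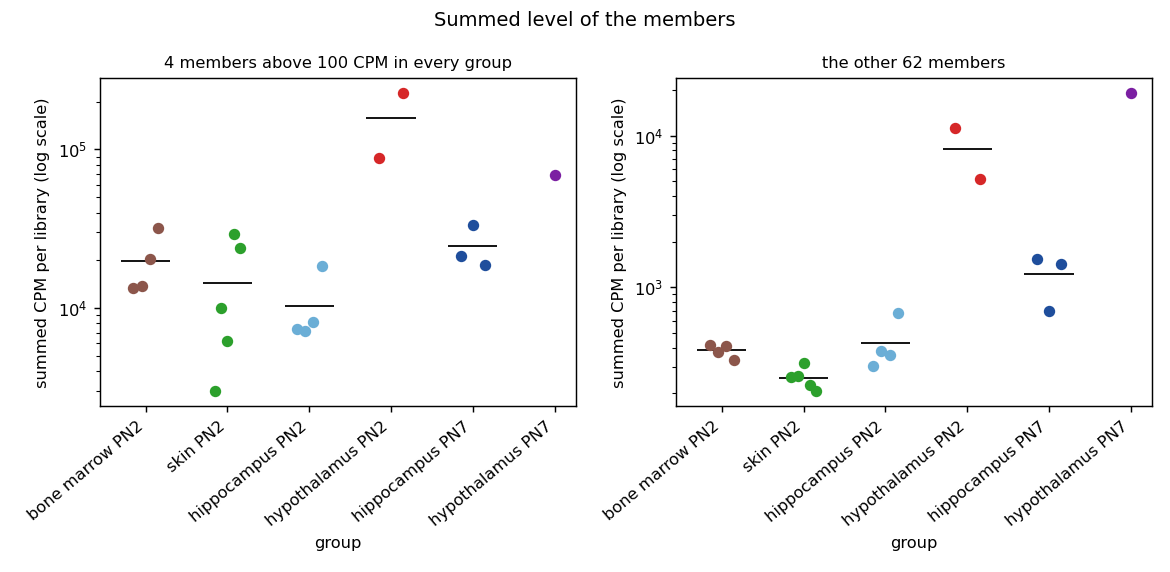
Summed CPM per library (log scale) for the 4 members above 100 CPM in every group (left) and for the other 62 (right), by group, with a bar at the mean of groups with replicates. In the right panel the 3 hypothalamus libraries lie between 5166 and 18989 CPM and all others at or below 1527 CPM. In the left panel the libraries numbered 4 and 5 are the highest of their groups in bone marrow, skin and hippocampus at PN2.

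The levels at PN7 were not used to choose the members, so both brain regions could be compared there. In the hypothalamus library of PN7, 60 of the 66 members reached 10 CPM (90.9%), as did 96.4% of the 7483 transcripts with 10 CPM in both hypothalamus libraries of PN2. Persistence above 10 CPM was thus not a mark of the members. Their level relative to hippocampus was higher than that of other transcripts. The median member was 10.2 times the hippocampus mean of PN7, and the median of the 7483 transcripts was 1.10 times.

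Of the 66 members, all of which were tested, 30 were higher in hypothalamus than in hippocampus at PN7 and 0 were lower (edgeR's quasi-likelihood test, adjusted p below 0.05 over 20521 transcripts). Over all transcripts tested 3.74% were called higher and 3.84% lower, and among those with 10 CPM in both hypothalamus libraries of PN2 5.52% were called higher. The 30 make up 45.5% of the members. The log2 fold changes of the 30 ran from 1.89 to 6.27, and 29 were at least 4-fold. The median log2 fold change was 3.15 over the members and 0.00 over all transcripts tested. Of the 36 members not called, 22 had a fold of at least 4, and 4 of the 66 had a negative log2 fold change. At an unadjusted p below 0.05, 47 members were higher and 1 was lower, and DESeq2 called 1 lower.

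This test rests on 1 hypothalamus library, assumed to vary like the replicated groups, and its estimate of the spread comes mostly from the PN2 libraries that chose the members. With limma voom 51 members were called higher, and with only the 4 libraries compared 13, of which 9 were among the 30.

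Without a test, 58 members lay above all 3 hippocampus libraries of PN7 in the hypothalamus library, against 40.9% of all transcripts tested. Only 1 lay below all 3 (24% of all transcripts), and 7 lay among them. At least 5-fold above the hippocampus mean were 51 members, against 11.6% of all transcripts. The hypothalamus library of PN7 also lay above all 16 libraries of other tissues for 56 members (17.7% of all transcripts tested). It was the highest of the 19 libraries for 40 members (14.8% of all transcripts tested), hypothalamus PN2 replicate 1 for 17 and replicate 2 for 9.

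**Figure D3:**
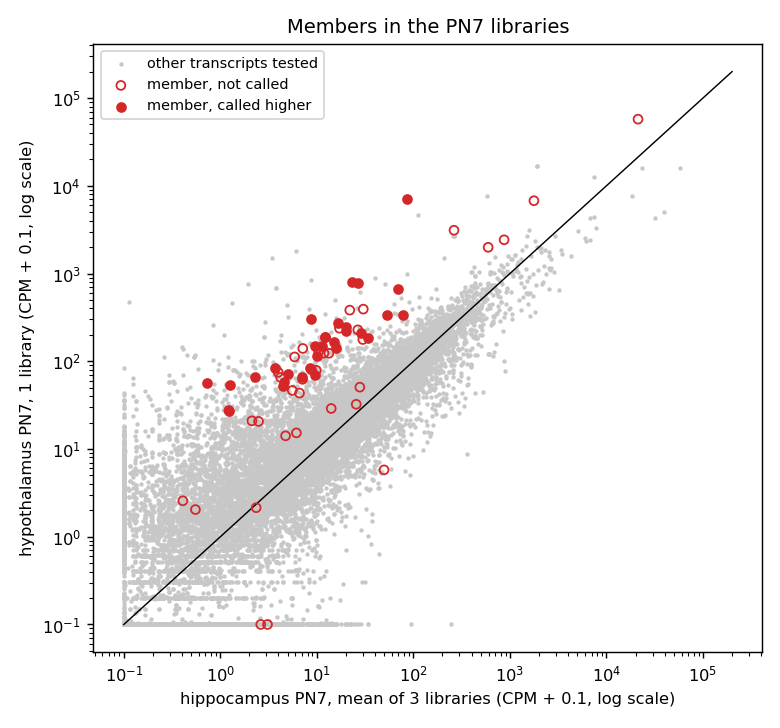
Level in the hypothalamus library of PN7 against the mean of the 3 hippocampus libraries of PN7 (CPM + 0.1, both axes logarithmic) for the members and the other transcripts tested, with the line of equality. Filled points are the 30 members called higher and open points the 36 not called. Most members lie above the line, and 4 lie below it or on it.

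ENSRNOT00000040954.4 had the largest fitted rise. It held 56.3 CPM in the hypothalamus library of PN7 and 0.544, 0.843 and 0.484 CPM in hippocampus at PN7. At PN2 it held 34.4 and 25.9 CPM in hypothalamus, 1.79, 1.58, 1.14 and 10.3 CPM in bone marrow, at most 0.182 CPM in hippocampus and at most 0.0762 CPM in skin. All 3 hypothalamus libraries were above all others, and bone marrow replicate 4 came next. The log2 fold change at PN7 was 6.27 ± 1.11 (SE; adjusted p = 0.00262, edgeR), and its adjusted p stayed at or below 0.0126 under the alternatives tried.

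ENSRNOT00000027931.6 was the second highest member in the hypothalamus library of PN7, after ENSRNOT00000011342.5, with 7029 CPM. It held 225, 14.4 and 18.3 CPM in hippocampus at PN7, where replicate 1 stood apart. At PN2 it held 2019 and 1010 CPM in hypothalamus, 2.61, 1.89, 5.45 and 8.58 CPM in hippocampus, at most 15 CPM in bone marrow and at most 2.55 CPM in skin. Its mean in hypothalamus at PN2 was 221 times that of the highest other group. The log2 fold change at PN7 was 6.16 ± 1.36 (SE; adjusted p = 0.0113, edgeR), and the call was lost with only the groups compared (adjusted p = 0.120, edgeR). Across the alternatives its adjusted p from edgeR or limma ran from 4.35e-06 to 0.120. None of its counts was a whole number, so its reads were shared with other transcripts and its level is uncertain.

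The 4 abundant members were not called in the fit of all libraries, and for 2 of them this turned on the fit. For ENSRNOT00000011342.5 the fitted log2 difference was 1.22 ± 0.68 (SE, with adjusted p = 0.316 in edgeR), and the hypothalamus library lay above all 3 hippocampus libraries. ENSRNOT00000066542.4, with 2423 CPM in hypothalamus and 726, 1289 and 596 CPM in hippocampus at PN7, had 1.26 ± 2.32 (SE; adjusted p = 0.829, edgeR). For ENSRNOT00000088161.1 the log2 fold change was 1.53 ± 0.97 (SE), with an adjusted p of 0.387 in edgeR and from 0.00883 to 0.493 over the alternatives. It was called higher with the replicate number as a block (adjusted p = 0.00883, edgeR), without the libraries numbered 4 and 5 (adjusted p = 0.0291, edgeR) and with only the groups compared (adjusted p = 0.0237, edgeR). For ENSRNOT00000086492.1 it was 1.72 ± 1.42 (SE), with an adjusted p of 0.518 in edgeR and from 0.0162 to 0.661 over the alternatives. It was called higher with the block (adjusted p = 0.0162, edgeR) and without the libraries numbered 4 and 5 (adjusted p = 0.0363, edgeR).

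In the hypothalamus library of PN7, 6 members lay below 10 CPM (at most 5.68 CPM). Of these 6, 4 lay below the hippocampus mean of PN7 and the other two above it. ENSRNOT00000087461.1, chosen after its values were seen, held 12.9 and 55.8 CPM in hypothalamus at PN2 and 0 counts in the hypothalamus library of PN7. In hippocampus it held 3.28, 6.66, 9.39 and 7.20 CPM at PN2 and 2.75, 2.76 and 3.42 CPM at PN7. Its fold of 5.18 at PN2 was close to the limit, and at PN7 it was not called (adjusted p = 0.0795, edgeR). Set against the limit of 3 counts in the hypothalamus library, the hippocampus mean of 2.98 CPM was 9.72 times as high. That limit covers counting error only, so this is not a lower bound. The counts of ENSRNOT00000087461.1 were whole numbers in only 2 of 19 libraries, bone marrow replicate 2 and hypothalamus PN7, both at 0 counts. Its reads were thus shared with other transcripts and its level is uncertain. It was called lower with DESeq2 (adjusted p = 0.0162) and without bone marrow replicate 2 (adjusted p = 0.00879, edgeR), and over the alternatives its adjusted p reached 0.265.

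**Figure D4:**
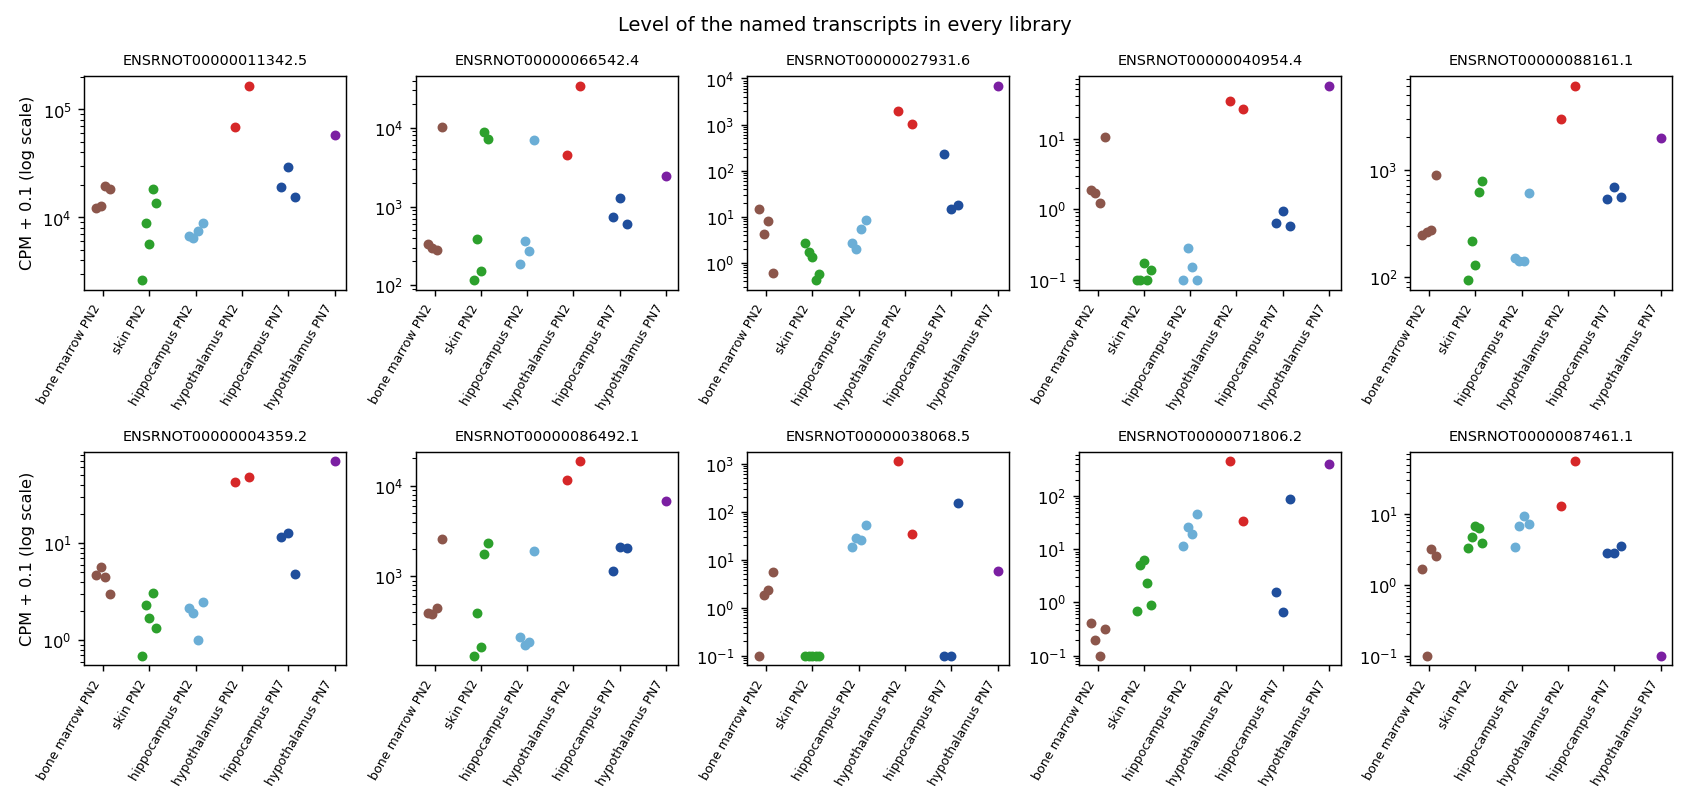
Level of 10 of the named transcripts in every library (CPM + 0.1, log scale), by group, without ENSRNOT00000079795.1. Each point is 1 library. ENSRNOT00000040954.4 and ENSRNOT00000027931.6 are high in all 3 hypothalamus libraries. ENSRNOT00000038068.5 and ENSRNOT00000071806.2 are uneven between the 2 hypothalamus libraries of PN2, and hippocampus PN7 replicate 3 is their highest hippocampus library. In the hypothalamus library of PN7, ENSRNOT00000071806.2 is high (393 CPM) and ENSRNOT00000038068.5 is low (5.68 CPM).

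Replicate 1 of hypothalamus PN2 was higher than replicate 2 for 48 members and lower for 18, with ratios up to 33.1 and 7.56 in these directions. The median ratio was 1.72 over the members and 1.18 over the 7483 transcripts. After these values were seen, the members were divided by that ratio. In 18 members replicate 1 was at least 4-fold higher, in 11 it was from 2- to 4-fold higher, in 30 both libraries lay within 2-fold, and in 7 replicate 2 was at least 2-fold higher. This division is a description and received no test.

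The 18 members with the high replicate 1 were also uneven in hippocampus at PN7. Their median levels were 2.14, 0.796 and 31.3 CPM in hippocampus PN7 replicates 1, 2 and 3. Replicate 3 was the highest of the 3 libraries for 17 of the 18. Among the 108 other transcripts with 10 CPM in both hypothalamus libraries of PN2 and a ratio of at least 4, it was the highest for 42.6%. These 108 had a median ratio of 4.85 and the 18 members one of 9.83, so the sets are not matched in ratio. Replicate 3 was at least 5-fold above both other libraries for 13 of the 18 members, for 5 of these 108 transcripts and for 0.494% of the 7483. In hippocampus at PN2, replicate 4 was the highest for 16 of the 18, but also for 21 of the 30 within 2-fold, against 40.4% of the 7483 transcripts and 37.7% of all transcripts tested.

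ENSRNOT00000038068.5 and ENSRNOT00000071806.2, both chosen after their values were seen, show this pattern. ENSRNOT00000071806.2 held 451 and 33.7 CPM in hypothalamus at PN2 and 1.48, 0.562 and 88.4 CPM in hippocampus at PN7. It held 11.6, 26, 19 and 46.0 CPM in hippocampus at PN2 and 393 CPM in the hypothalamus library of PN7. Levels were at most 0.309 CPM in bone marrow, and skin reached 6.25 CPM. Its call at PN7 turned on 1 library and on the method: the adjusted p was 0.192 in edgeR, and 0.00332 in edgeR without hippocampus PN7 replicate 3. Over the alternatives it ran from 0.00202 (limma voom) to 0.393, with no adjusted p from DESeq2.

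ENSRNOT00000038068.5 held 1122 and 33.9 CPM in hypothalamus at PN2, the most uneven pair among the members. It held 0, 0 and 149 CPM in hippocampus at PN7, and 18.0, 28.7, 25.3 and 51.5 CPM in hippocampus at PN2. No counts were found in skin. Unlike ENSRNOT00000071806.2, it was low in the hypothalamus library of PN7, with 5.68 CPM. Its log2 fold change at PN7 was -3.29 ± 3.06 (SE; adjusted p = 0.576, edgeR). Without hippocampus PN7 replicate 3, which leaves libraries at 0 counts, the sign turned and it was not called either (adjusted p = 0.181, edgeR; 0.181 to 1.0 over the alternatives, with no adjusted p from DESeq2).

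**Figure D5:**
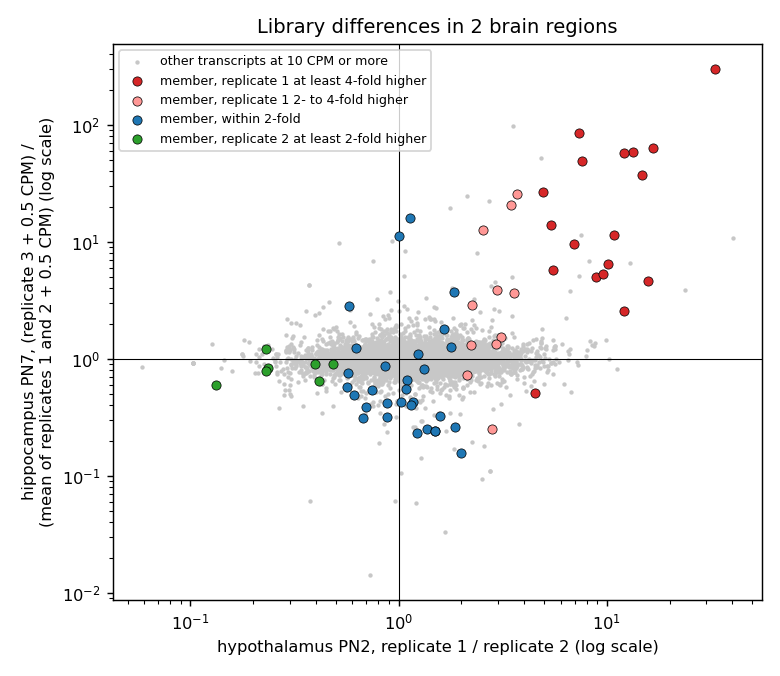
Ratio of hypothalamus PN2 replicate 1 to replicate 2 (horizontal) against the ratio of hippocampus PN7 replicate 3 to the mean of replicates 1 and 2, with 0.5 CPM added to both terms of the latter (vertical), on logarithmic axes, for the members and for other transcripts at 10 CPM or more in both hypothalamus libraries of PN2. Of the 18 members with the high replicate 1, 17 have replicate 3 as the highest hippocampus library of PN7 and lie at the upper right.

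In the 30 members within 2-fold, the order of the hippocampus libraries of PN7 was another one. Their median levels were 14.4, 4.24 and 4.55 CPM in replicates 1, 2 and 3, and replicate 1 was the highest for 22 of the 30. Over the 7483 transcripts replicate 1 was the highest for 42.7%. Their medians were 56.1 and 47.6 CPM in hypothalamus at PN2 and 90.7 CPM in the hypothalamus library of PN7, which lay above both PN2 libraries for 24 of the 30 (38.5% of the 7483 transcripts). At PN7, 19 of the 30 were called higher than in hippocampus, and 6 of the 18 with the high replicate 1. The median log2 fold changes were 3.28 and 3.18, and the median standard errors 0.90 and 1.25. The spread in the fit drew on the 2 hypothalamus libraries of PN2 whose ratio made the division. A wide ratio can itself raise the standard error, so nothing is read from the difference in calls.

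ENSRNOT00000004359.2 was also called (log2 fold change 2.65 ± 0.60, SE; adjusted p = 0.0131, edgeR; 5.05e-05 to 0.0622 over the alternatives), but not with only the groups compared (adjusted p = 0.0622, edgeR). It held 42.4 and 48.1 CPM in hypothalamus at PN2 and 69.4 CPM at PN7. Hippocampus held 11.3, 12.5 and 4.74 CPM at PN7 and 2.07, 1.82, 0.903 and 2.39 CPM at PN2. Every hippocampus library of PN7 was above every one of PN2, and every hypothalamus library was above all of them. Bone marrow held at most 5.62 CPM and skin at most 2.99 CPM.

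By age, the mean of hippocampus was higher at PN7 than at PN2 for 55 of the 66 members (83.3%), against 49.1% of all transcripts tested. In 22 members all 3 PN7 libraries lay above all 4 of PN2, against 14.9% of all transcripts tested, and in 1 all lay below, against 13.6%. The rule held the hippocampus mean of PN2 down, so nothing is read from these counts. The median ratio of PN7 to PN2 in hippocampus was 2.21 over the members, 3.86 over the 30 within 2-fold and 1.30 over the 18 with the high replicate 1. Hypothalamus was at 1.60 times its PN2 mean in the PN7 library for the median member and 1.07 times for the 7483 transcripts. That library lay above both PN2 libraries for 40 members, between them for 14 and below both for 12. Over all transcripts tested 37.8% lay above both and 14.9% below both, over the 7483 transcripts 38.5% and 25.2%, and the rule used the PN2 values.

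The size and the content of the set depended on both hypothalamus libraries of PN2. With replicate 1 alone, 363 transcripts met the rule, 60 of the 66 among them. With replicate 2 alone, 96 did, 41 of the 66 among them. Of the 9 members that overlapped with other libraries of PN2, 7 had replicate 1 at least 4-fold above replicate 2.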

How the data were processed

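The values the authors deposited are estimated counts, 1 per Ensembl transcript and library, not normalized between libraries. They come from kallisto on the rat build Rnor 6.0, per the submitters' processing notes, which name no version. Reads that match several transcripts are divided among them. Per the labels' protocols, cDNA was amplified with a SMART-Seq kit for ultra-low input, and no molecular identifiers are named, so floors cover counting error only.

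Members were found from CPM on column totals. Estimated counts were rounded and tested with edgeR 4.0.16 (R 4.3.3): filterByExpr over the 6 groups, TMM, 1 quasi-likelihood fit (robust) of all 19 libraries, and hypothalamus against hippocampus at PN7 with Benjamini-Hochberg adjustment over 20521 transcripts. The standard error is the log2 fold change divided by the square root of F. The fit was also run on simulated counts, drawn with the spread estimated from these data. That run could not test whether the lone hypothalamus library of PN7 varies like the replicated groups. Alternatives were RLE factors, DESeq2 1.42.0, limma 3.58.1 voom, other filters, only the groups compared, a replicate block, thinning to 5495201 counts, merged identical rows and each library left out; leaving out the libraries numbered 4 and 5 was added after seeing the data.

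Named transcripts are the first 2 by mean level in hypothalamus at PN2, by level at PN7, by called change and by likeness to the highest member, apart from those said to be chosen later. The members and lists were chosen with earlier results of these data known. P-values measure the spread between pools.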

Additional observations from a re-analysis of the deposited data

Results flagged for a closer look

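In groups of 4 or 5 libraries, a library was listed when its gap to the next took up most of the group's range (Dixon's test). Over 24 such tests 6 values were listed, and chance lists about 1 in 20. The 6 values fall on 2 libraries, replicate 4 of bone marrow and replicate 4 of hippocampus at PN2, so they are not independent. The summed level also contains the named members, so the share of 1 in 20 is no measure here. The tests covered only some members, and ENSRNOT00000086492.1, which has the same split, is not among the values listed. The summed level of the members was 19152 CPM in hippocampus PN2 replicate 4, against 7558 to 8525 CPM in the other 3. ENSRNOT00000066542.4 held 10143 CPM in bone marrow replicate 4, against 279 to 336 CPM in the others, and 7105 CPM in hippocampus PN2 replicate 4, against 188 to 369 CPM. ENSRNOT00000088161.1 held 897 CPM in bone marrow replicate 4, against 247 to 272 CPM, and 605 CPM in hippocampus PN2 replicate 4, against 140 to 150 CPM. ENSRNOT00000040954.4 held 10.3 CPM in bone marrow replicate 4, against 1.14 to 1.79 CPM.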

How the results depend on the processing

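The number of members was 112 with a fold limit of 3, 34 with a limit of 10 and 38 with a minimum of 20 CPM. With each library left out in turn it ran from 64 to 363, and the number at 10 CPM or more in the hypothalamus library of PN7 from 49 to 242; both highest values are those without hypothalamus PN2 replicate 2. Members called higher at PN7 numbered 13 when the fit held only the PN7 libraries and 51 under limma voom, and ran from 23 to 40 with each library left out. Members called lower numbered 1 with DESeq2, and 0 to 1 with each library left out. Over all transcripts, 767 were higher and 787 lower. These were 1328 and 1352 with DESeq2, and the higher calls were 409 from the PN7 libraries alone and 2339 under limma voom. Leaving out all libraries numbered 4 or 5 gave 1232 lower calls, with 35 members called higher. With each library left out, the higher calls ran from 467 (without hippocampus PN7 replicate 2) to 1211 and the lower ones from 578 to 1249; without either hypothalamus library of PN2 both numbers rose above 1.5 times those of all libraries. The log2 fold change of ENSRNOT00000038068.5 turned positive with limma voom (3.19), with the replicate block (0.025) and without hippocampus PN7 replicate 3 (9.52), uncalled in each. The last is fitted against libraries at 0 counts and gives no size; with each library left out it ran from -3.88 to 9.52. The cause of these changes was not tested, apart from fewer libraries in some fits. With the replicate number as a block in the fit of all groups, 27 members were called higher, 24 of them among the 30, and over all transcripts 590 were higher and 729 lower. The block also turned the calls of ENSRNOT00000088161.1 and ENSRNOT00000086492.1 to higher. Deviations of libraries from their group means correlated across transcripts from 0.164 to 0.270 in the 3 pairs numbered 4. In pairs numbered 1, 2 or 3 the correlations ran from -0.118 to 0.141. Pairs of unlike number were not correlated, so a shared deviation by number was not tested. The PN7 groups compared share only number 1, for which no pairing was shown, and the lone hypothalamus library of PN7 has no deviation. The low totals of the hypothalamus libraries, above all those of PN2, limit the members at low CPM.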
